A study of Homo sapiens with 4 samples.

Results

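The cytosolic and mitochondrial heat shock chaperones were examined in LNCaP cells that had been transfected with a MED1 expression vector or with the empty vector. LNCaP is a prostate cancer line that depends on the androgen receptor, and MED1 is a subunit of Mediator, the complex that connects transcription factors with RNA polymerase II. The 44 genes were chosen by name, with earlier results of these data known. They cover the HSP70, HSP110, HSP90, HSP40 and small HSP families, the mitochondrial and cytosolic chaperonins, the BAG proteins, HSP90 cochaperones and the heat shock factors, and leave out chaperones of the endoplasmic reticulum. A probe set was counted when the platform annotation named 1 of these genes alone. That held for 60 probe sets of 38 genes, out of 11963 genes so named on the array. A further 4 genes, HSPA1A, HSPA1B, HSPA8 and TCP1, were listed by the annotation only beside other genes and are described separately. AHSA1 and HSF2 were named by no probe set and were not analysed here.

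The MED1 group held 2 samples of LNCaP cells transiently transfected with the MED1 vector, and the empty vector group held 2 samples transfected with the vector alone. All samples were grown with 10% serum, transfected by lipofection and collected after 24 hours. All are of a single cell line, and transient transfection leaves an unknown share of cells without vector. The labels do not say whether the duplicates are separate cultures, so every p-value here rests on a spread between samples that may be technical. For empty vector samples the description entry also names a MED1 vector, whereas their titles, source names and transfection entries give the empty vector; the last were used.

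Heat shock proteins bind unfolded or partly folded proteins and help them reach or regain their native shape. HSP70 and HSP90 proteins work through cycles of ATP binding. HSP40 (DNAJ) proteins bring substrates to HSP70 and stimulate its ATPase, while HSP110 and BAG proteins release its nucleotide. Chaperonins enclose substrates in a barrel. Heat shock factor 1 (HSF1) binds heat shock elements, inverted repeats of GAA spaced by 2 bases, and switches on many of these genes when unfolded protein accumulates. In prostate cells HSP90 and its partners hold the androgen receptor in a form that can bind hormone.

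The values are MAS5 signals (the array software's summary of each probe set, on a linear scale), and differences are given as log2 fold changes of signal + 16, MED1 minus empty vector, with the standard error (SE) of limma. A probe set was tested when its mean on that log2 scale was at or above the 40th percentile of all probe sets, a signal of 31.01. Of 22215 probe sets, 13329 were tested, among them 54 of the 60 chaperone probe sets, from 36 genes. The 4 arrays had median signals of 77.4 and 79.0 (MED1) and 80.2 and 83.2 (empty vector), and Pearson's r between any pair of arrays over the tested probe sets was 0.986 to 0.992. The luminal prostate markers measured, 7 of 8, were all above the filter level, and their summed signal was 21992 to 23341 in the MED1 samples and 22846 to 25074 in the empty vector samples. Of the 7, 4 (KLK3, KLK2, TMPRSS2 and FOLH1) read lower on both MED1 arrays than on both empty vector arrays, and 0 read higher. Over all tested probe sets 22.6% read lower and 17.2% higher by that rule. The part of this in the results below was not tested. Each marker was read only on its probe set of highest mean signal. Of the basal prostate markers only KRT14 was above the filter level, at 108 or less, and of the fibroblast markers only COL1A1, at signals from 65.8 to 156. No leukocyte or endothelial marker was. Of 2 MED1 probe sets, 1 read 559 and 807 with MED1, against 292 and 315 with empty vector. It rose by 1.11 ± 0.16 on the log2 scale (adjusted p = 0.032 by limma with Benjamini-Hochberg adjustment). That call was lost with both MED1 sets averaged (limma, adjusted p = 0.0756) and without either empty vector replicate, which leaves 1 array in that group. With 1 array left out the log2 fold change was 0.848 to 1.36. The call was also lost with dim probe sets kept in the fit (adjusted p = 0.381) and without a variance trend (0.358). Only 0 and 5 of all probe sets passed in those 2 fits. The other MED1 probe set, at 1172 and 1074 with MED1 and 1097 and 1011 with empty vector, overlapped and did not pass (log2 fold change 0.09 ± 0.10, adjusted p = 0.83).

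No chaperone probe set that names 1 gene passed the test. Of the 54 tested, 0 had a Benjamini-Hochberg adjusted p under 0.05 (limma), where 0.293% of all tested probe sets passed. The lowest adjusted p among them was 0.22. At an unadjusted p under 0.05, 7 were higher in the MED1 samples and 0 were lower. Those 7 are 13.0% of the 54, beside 4% of all tested probe sets that were higher and 5.2% that were lower by that rule. They belong to HSPH1, DNAJA1, CHORDC1, HSPA4 and BAG2.

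Direction was also counted without a test. Because the genes were chosen with earlier results of these data known, the shares here and at an unadjusted p are a description. Both MED1 arrays lay above both empty vector arrays in 19 of the 54 probe sets (35.2%), beside 17.2% of all tested probe sets. Both lay below in 6 (11.1%), beside 22.6% of all. In the other 29 the groups overlapped. The median log2 fold change of the 54 was 0.06, with 36 values positive and 18 negative, beside a median of -0.02 over all tested probe sets. The values ran from -0.39 to 0.41, and 20 of the 54 lay within 0.1 of 0.

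**Figure D1:**
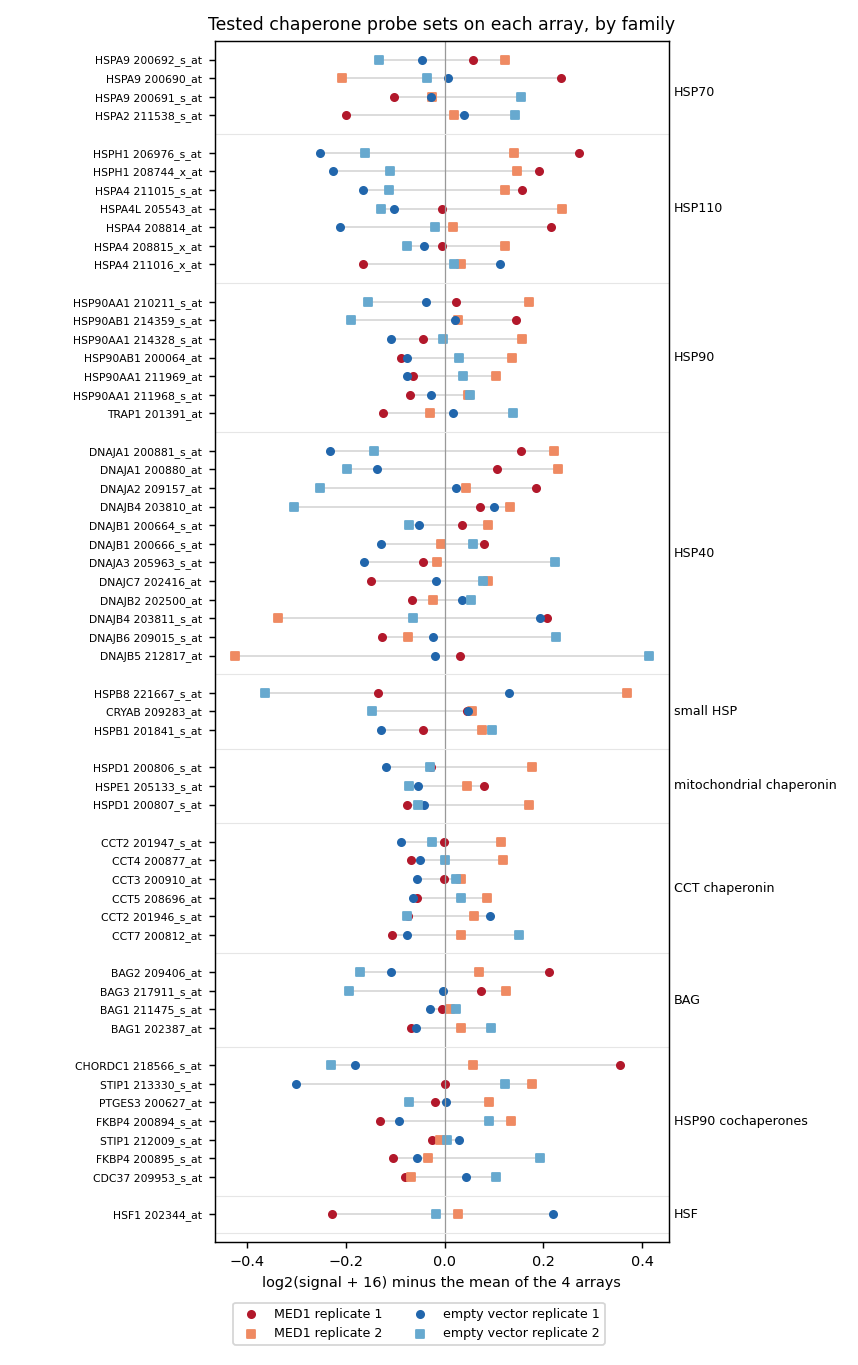
Each line is a tested chaperone probe set, grouped by family; points give log2(signal + 16) on each of the 4 arrays minus their mean, with MED1 arrays in red tones and empty vector arrays in blue tones. In the HSP110 family the MED1 arrays lie to the right of the empty vector arrays in 6 of 7 probe sets, while in the CCT chaperonin that holds in 1 of 6, beside 17.2% of all tested probe sets.

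The small shift of the whole set was uneven between arrays. Set against empty vector replicates 1 and 2, MED1 replicate 2 had a median difference of 0.12 and 0.09 on the log2 scale over the 54 probe sets. MED1 replicate 1 had 0.03 and -0.01. The MED1 replicates differed from each other by a median of 0.07, and the empty vector replicates by 0.06, sizes close to the shift of 0.06 between groups. Over all tested probe sets these medians lay between -0.03 and 0.01. Without MED1 replicate 2 the group median was 0.01, and without MED1 replicate 1 it was 0.12.

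**Figure D2:**
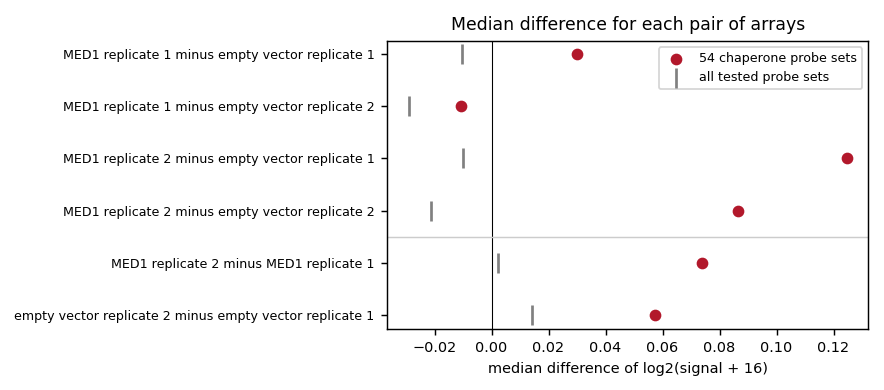
Red points give the median difference in log2(signal + 16) over the 54 chaperone probe sets for each pair of arrays, and grey bars the same over all tested probe sets; the lower 2 rows compare replicates of 1 group. The chaperone medians of the MED1 replicate 2 pairs, 0.12 and 0.09, lie furthest to the right, beside 0.07 between the MED1 replicates.

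The members with the lowest p-values belong to the HSP110, HSP40, BAG and HSP90 cochaperone families. HSPH1 encodes HSP105, an HSP110 protein that releases nucleotide from HSP70 and is itself induced by heat. The first of its probe sets read 2934 and 2675 with MED1, against 2035 and 2169 with empty vector. The second, of a kind whose probes can also bind other transcripts, read 1246 and 1207 with MED1, against 929 and 1007 with empty vector. On both, the groups did not overlap. The log2 fold changes were 0.41 ± 0.10 and 0.34 ± 0.10, or 1.33-fold and 1.26-fold (limma, Benjamini-Hochberg adjusted p = 0.22 and 0.321).

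DNAJA1 encodes an HSP40 protein that brings substrates to cytosolic HSP70. The first of its probe sets read 4201 and 4398 with MED1, against 3207 and 3414 with empty vector. The second read 2071 and 2256 with MED1, against 1748 and 1675 with empty vector. Both sets separated the groups, with log2 fold changes of 0.38 ± 0.09 and 0.33 ± 0.09 (adjusted p = 0.246 and 0.309).

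CHORDC1 encodes CHP-1 (morgana), a zinc-binding partner of HSP90. Its only probe set read 2616 and 2124 with MED1, against 1798 and 1738 with empty vector. The MED1 replicates differed by more than the lower of them did from the empty vector samples. The log2 fold change was 0.41 ± 0.11 (adjusted p = 0.29). Without MED1 replicate 1 it was 0.263. Without MED1 replicate 2 it was 0.56 and passed (limma, adjusted p = 0.0147), in a fit where 1.62% of all tested probe sets passed and the lone MED1 sample is assumed to vary like the empty vector pair.

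BAG2, which releases nucleotide from HSP70 and inhibits the ubiquitin ligase CHIP, read 785 and 709 with MED1, against 625 and 597 with empty vector (log2 fold change 0.28 ± 0.11, adjusted p = 0.461). BAG3, which links HSP70 to autophagy and is induced by HSF1, read 2043 and 2118 with MED1, against 1938 and 1695 with empty vector (0.20 ± 0.10, adjusted p = 0.59). The groups did not overlap for either gene. The 2 BAG1 probe sets gave -0.04 and 0.01.

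**Figure D3:**
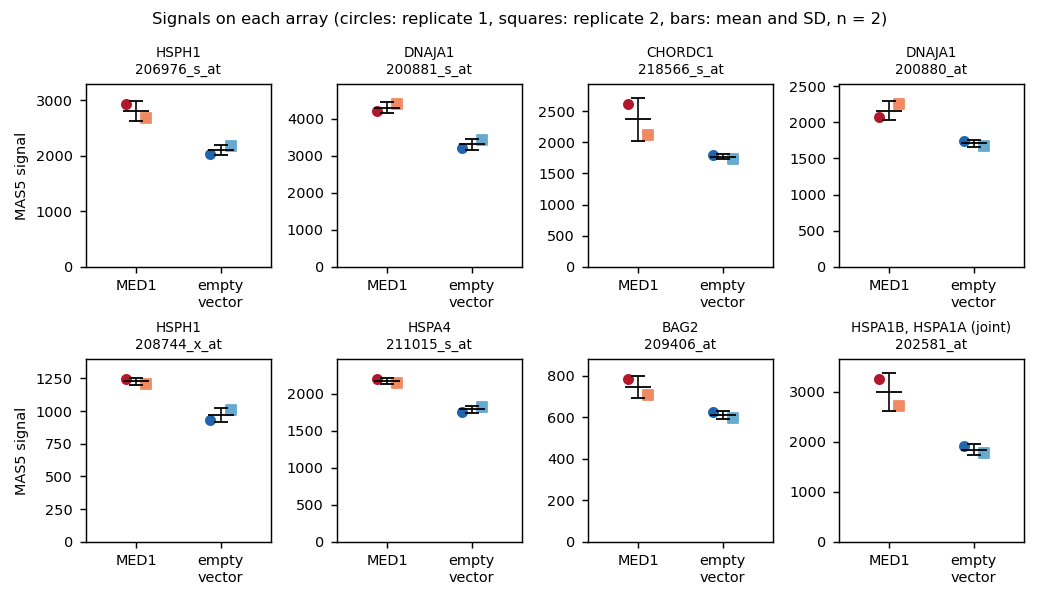
MAS5 signal on a linear axis from 0 in the MED1 samples (left) and the empty vector samples (right) for the 7 chaperone probe sets with an unadjusted p under 0.05 and for the set whose annotation lists HSPA1B and HSPA1A together; circles and squares are replicates 1 and 2, and bars give the mean and SD. The groups do not overlap in any panel, and the fold of means is largest for that joint set, at 2992 with MED1 against 1841 with empty vector.

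HSPA4 (APG-2), another HSP110 protein, has 4 probe sets, with values from -0.13 to 0.28. The highest of them read 2203 and 2151 with MED1, against 1760 and 1827 with empty vector (log2 fold change 0.28 ± 0.09, adjusted p = 0.401). A pair of further sets, at 0.12 ± 0.09 and 0.23 ± 0.13, also had both MED1 arrays above. On the lowest the groups overlapped, at 318 and 367 with MED1, against 389 and 364 with empty vector (-0.13 ± 0.13). The sets at 0.12 and -0.13 are also of the kind whose probes can bind other transcripts. HSPA4L, another HSP110 gene, gave 0.23 ± 0.14, with both MED1 arrays above. In all, the 7 HSP110 probe sets, from 3 genes, had a median of 0.23. Of them, 6 were above on both arrays, where 17.2% of all tested probe sets were. That median was the highest of the families with more than 1 tested probe set, counting only sets that name 1 gene. By that rule the HSP70 median, -0.05, rests on 4 sets. It leaves out the jointly listed HSPA1A, HSPA1B and HSPA8 sets described below, which gave 0.23 to 0.69 where tested.

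The annotation that lists several genes covered the inducible HSP70 genes. HSPA1A and HSPA1B encode almost identical proteins from neighbouring genes, and the annotation does not separate them. A probe set listing both read 3258 and 2725 with MED1, against 1917 and 1766 with empty vector. It rose by 0.69 ± 0.11 on the log2 scale, or 1.61-fold, and passed (limma, adjusted p = 0.0446). The call was lost with probe sets averaged per gene (limma, adjusted p = 0.0623) and without either empty vector replicate, which leaves 1 array in that group. With 1 array left out the log2 fold change was 0.563 to 0.819. The call was also lost with dim probe sets kept in the fit (adjusted p = 0.381) and without the variance trend (0.411). Only 0 and 5 of all probe sets passed in those 2 fits. The set that lists HSPA1L as well read 1004 and 1003 with MED1, against 692 and 896 with empty vector (0.34 ± 0.13, adjusted p = 0.459). Its value was 0.16 without empty vector replicate 1 and 0.525 without empty vector replicate 2. Another set listing HSPA1B and HSPA1A was under the filter with signals from 0.981 to 15.8.

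HSPA8 encodes HSC70, the constitutive cytosolic HSP70, and its introns carry the small nucleolar RNAs listed with it. The 3 probe sets that name it list SNORD14C and SNORD14D too. The first of them read 13598 and 14942 with MED1, against 10938 and 10644 with empty vector (0.40 ± 0.11, adjusted p = 0.276). The others gave 0.35 ± 0.10 and 0.23 ± 0.10 (limma, adjusted p = 0.321 and 0.551). The sets at 0.40 and 0.23 are of the kind whose probes can also bind other transcripts. None of the 3 overlapped between the groups, and MED1 was higher in each.

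Among the other jointly listed probe sets, 1 overlapped between the groups and the rest had both MED1 arrays above. Those that list TCP1, a subunit of the CCT chaperonin, with SNORA29 gave -0.01 ± 0.10, 0.18 ± 0.11 and 0.21 ± 0.10. A further pair of sets lists DNAJB6 beside TMEM135 and gave 0.62 ± 0.13 and 0.26 ± 0.10 (limma, adjusted p = 0.133 and 0.487). The first of this pair read 1213 and 1099 with MED1, against 837 and 663 with empty vector, which did not overlap. With 1 array left out its value was 0.457 to 0.786. It passed without MED1 replicate 2 (adjusted p = 0.00446) and without empty vector replicate 1 (0.0336), fits where 1.62% and 0.338% of all tested probe sets passed and the lone array is assumed to vary like the other pair. It did not pass without MED1 replicate 1 (0.0694) or without empty vector replicate 2 (0.349). The set that names DNAJB6 alone read 175 and 182 with MED1, against 189 and 228 with empty vector (-0.20 ± 0.15). DNAJB6, an HSP40 protein that holds back polyglutamine aggregation, is therefore described by sets of opposite sign, and which transcript the joint sets measure was not tested. Of the 10 jointly listed sets tested, 9 had both MED1 arrays higher than either empty vector array and 0 had both lower, beside 17.2% and 22.6% of all tested probe sets. With them included, the median over 64 probe sets was 0.11.

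**Figure D4:**
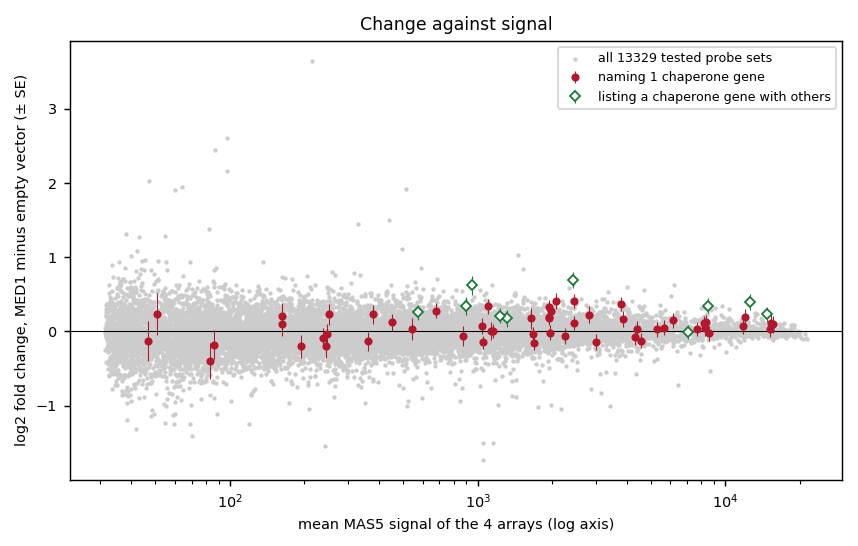
Log2 fold change (MED1 minus empty vector, ± SE) against the mean MAS5 signal of the 4 arrays on a log axis; grey points are all 13329 tested probe sets, red points those naming 1 chaperone gene and open green diamonds those listing a chaperone gene with other genes. The red points stay between -0.39 and 0.41, and the set listing HSPA1B and HSPA1A, at 0.69, is the highest of the diamonds.

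The upstream sequence of 8 members is given because these genes have both probe sets past 0.3 without joint annotation, the only 3-unit matches in the set, or the joint probe set that passed. RefSeq promoters were matched for 41 of the 44 genes (GRCh38.p14). The 250 bases before each start were searched for GAANNTTC and TTCNNGAA, the pairs of repeat units, and for 3 units in a row, where such a pair is followed, after NN, by the unit that continues the alternation of GAA and TTC. Each pair reads the same on both strands, the forms of 3 units are reverse complements of each other, and every 3-unit match contains both pairs. A pair occurred in 12 of the 41 promoters (29.3%), beside 11.7% of 27305 promoters of all genes. A 3-unit match occurred in 4 (9.76%), those of CHORDC1, HSPA8, DNAJB6 and HSPA6, beside 0.439% of all. The 12 promoters with a pair are not all separate. The HSPA1L and HSPA1A windows overlap on opposite strands and share 1 pair, which was counted for both genes. The HSPA1B window is a near copy of that of HSPA1A. A match is a description of letters and not a binding site. The bases run 5′ to 3′ along the gene's strand and end just before its start, and capitals mark every match:
CHORDC1: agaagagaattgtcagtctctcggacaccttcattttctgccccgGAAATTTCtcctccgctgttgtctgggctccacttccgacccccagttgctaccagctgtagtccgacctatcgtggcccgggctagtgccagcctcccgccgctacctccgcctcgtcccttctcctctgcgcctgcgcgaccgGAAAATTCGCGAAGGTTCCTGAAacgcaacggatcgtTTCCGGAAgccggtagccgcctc
HSPA8: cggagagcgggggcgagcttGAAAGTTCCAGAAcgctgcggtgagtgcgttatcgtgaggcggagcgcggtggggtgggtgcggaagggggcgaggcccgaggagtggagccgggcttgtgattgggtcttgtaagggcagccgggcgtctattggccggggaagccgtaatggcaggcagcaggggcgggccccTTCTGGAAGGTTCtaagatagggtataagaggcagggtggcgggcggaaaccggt
DNAJB6: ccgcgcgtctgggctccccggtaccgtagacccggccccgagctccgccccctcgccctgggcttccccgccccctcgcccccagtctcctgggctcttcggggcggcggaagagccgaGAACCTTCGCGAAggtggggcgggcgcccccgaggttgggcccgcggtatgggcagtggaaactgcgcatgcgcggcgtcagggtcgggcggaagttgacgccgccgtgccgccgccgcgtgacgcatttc
HSPA6: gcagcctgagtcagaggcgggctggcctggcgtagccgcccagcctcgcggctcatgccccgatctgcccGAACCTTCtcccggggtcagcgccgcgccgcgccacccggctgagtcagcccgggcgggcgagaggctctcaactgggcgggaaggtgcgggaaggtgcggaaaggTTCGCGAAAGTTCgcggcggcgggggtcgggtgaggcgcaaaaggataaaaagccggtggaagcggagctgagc
HSPA1A: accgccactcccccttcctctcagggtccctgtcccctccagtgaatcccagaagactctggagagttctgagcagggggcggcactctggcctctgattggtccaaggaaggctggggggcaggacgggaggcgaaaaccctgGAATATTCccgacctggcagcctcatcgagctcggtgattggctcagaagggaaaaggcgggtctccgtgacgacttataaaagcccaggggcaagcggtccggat
HSPA1B: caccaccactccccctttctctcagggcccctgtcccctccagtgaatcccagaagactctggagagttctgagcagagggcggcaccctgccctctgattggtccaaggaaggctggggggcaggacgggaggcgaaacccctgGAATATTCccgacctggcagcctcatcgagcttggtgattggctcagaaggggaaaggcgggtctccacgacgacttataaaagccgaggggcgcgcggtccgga
DNAJA1: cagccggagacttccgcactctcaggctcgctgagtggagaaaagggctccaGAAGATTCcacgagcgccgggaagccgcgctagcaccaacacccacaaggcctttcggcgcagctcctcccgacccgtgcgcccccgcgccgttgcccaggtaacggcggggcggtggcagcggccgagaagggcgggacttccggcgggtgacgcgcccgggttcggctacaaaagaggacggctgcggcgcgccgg
HSPH1: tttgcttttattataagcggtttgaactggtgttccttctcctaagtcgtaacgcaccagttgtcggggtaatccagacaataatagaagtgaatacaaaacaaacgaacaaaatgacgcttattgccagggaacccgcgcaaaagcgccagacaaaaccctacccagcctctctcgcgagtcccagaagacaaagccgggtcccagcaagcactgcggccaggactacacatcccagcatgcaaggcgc
The windows lie at chr11:90223050-90223299, minus strand (CHORDC1), chr11:123062137-123062386, minus strand (HSPA8), chr7:157336754-157337003, plus strand (DNAJB6), chr1:161524290-161524539, plus strand (HSPA6), chr6:31815293-31815542, plus strand (HSPA1A), chr6:31827488-31827737, plus strand (HSPA1B), chr9:33025023-33025272, plus strand (DNAJA1) and chr13:31162389-31162638, minus strand (HSPH1).

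These sequences can be set beside the signals. Some were shown because of those signals, so the comparison was partly fixed by that choice, and a link was not tested. In the CHORDC1 window 3 overlapping 3-unit matches start 60 bases before the gene's start, and its log2 fold change was 0.41. The HSPA8 window has 2 such matches, and the probe sets listing HSPA8 gave 0.23 to 0.40. The DNAJB6 window has 1. The set naming DNAJB6 alone gave -0.20, with both MED1 arrays below, and the sets listing it with TMEM135 gave 0.62 and 0.26. HSPA6 encodes HSP70B′, a human HSP70 that is nearly silent until cells are strongly stressed, and its window holds 1 match. Both HSPA6 probe sets were under the filter. The first read 13.6 and 41.0 with MED1, against 13.3 and 49.1 with empty vector. The second read 27.4 and 20.3 with MED1, against 15.8 and 27.0 with empty vector. The groups overlapped on both. The HSPA1A and HSPA1B windows had 1 pair each and no 3-unit match, and the set listing both genes that passed gave 0.69. DNAJA1, at 0.38 and 0.33, had 1 pair and no 3-unit match, and HSPH1, at 0.41 and 0.34, had neither in this window. Among promoters not shown, those of BAG2, HSPB1, HSPB8, TCP1 and HSPA1L also held a pair. The values were 0.28 for BAG2, 0.03 for HSPB1, 0.23 for HSPB8 and -0.01 to 0.21 for the sets listing TCP1. The set naming HSPA1L alone was under the filter. Promoters without a pair include those of BAG3 (0.20), DNAJB1 (0.07 and 0.12) and HSP90AA1 (-0.02 to 0.19).

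HSF1 itself has 2 probe sets, with mean signals of 244 and 26.7. The first read 204 and 247 with MED1, against 284 and 239 with empty vector, which overlapped (log2 fold change -0.20 ± 0.15, limma adjusted p = 0.729). The second was under the filter and read 24.6 and 19.3 with MED1, against 27.4 and 35.3 with empty vector. It was the 1 of the 6 chaperone probe sets under the filter with both MED1 arrays below both empty vector arrays, where 20.5% of all probe sets under the filter were. The others under the filter belong to HSPA6, HSPA1L (the testis HSP70), DNAJB5 and DNAJC7, and all of them overlapped. DNAJB1, an HSP40 protein induced by heat, gave 0.07 ± 0.10 on 1 set, where the groups overlapped. On the other it read 465 and 482 with MED1, against 436 and 430 with empty vector (0.12 ± 0.11, adjusted p = 0.771).

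The remaining HSP70 and HSP90 probe sets ran from -0.18 to 0.19, and none passed. HSPA9, the mitochondrial HSP70 mortalin, has 3 probe sets with values of both signs. The first read 4238 and 4472 with MED1, against 4464 and 5066 with empty vector (-0.13 ± 0.10). The second read 2026 and 2119 with MED1, against 1885 and 1773 with empty vector (0.18 ± 0.09), and the other gave 0.03 ± 0.15. HSPA2, an HSP70 best known from spermatogenesis, gave -0.18 ± 0.20 at signals under 100. HSP90AA1, the inducible cytosolic HSP90, had 4 probe sets from -0.02 to 0.19. The highest read 12191 and 13499 with MED1, against 11678 and 10765 with empty vector (0.19 ± 0.11, adjusted p = 0.616). The other 3 overlapped. HSP90AB1, the constitutive form, gave 0.05 ± 0.11 and 0.17 ± 0.11. TRAP1, the mitochondrial HSP90, read 1550 and 1656 with MED1, against 1711 and 1862 with empty vector, so that both MED1 arrays were lower (-0.15 ± 0.10, adjusted p = 0.646).

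The mitochondrial chaperonin genes HSPD1 (HSP60) and its lid HSPE1 (HSP10) are transcribed in opposite directions from a shared promoter. HSPE1 read 8832 and 8634 with MED1, against 8054 and 7958 with empty vector (0.13 ± 0.10, adjusted p = 0.73). HSPD1 gave 0.15 ± 0.11 on 1 set, with 6038 and 6953 with MED1, against 5668 and 6027 with empty vector, and 0.09 ± 0.12 on the other. Over the 8 probe sets of the 5 mitochondrial members (HSPA9, HSPD1, HSPE1, TRAP1 and DNAJA3) the median was 0.06, as it was over the 46 tested sets of the other members.

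The cytosolic chaperonin CCT folds actin and tubulin. The 6 probe sets that name 1 of its subunits in the list, CCT2, CCT3, CCT4, CCT5 and CCT7, ran from -0.07 to 0.11 with a median of 0.03. Sets of other subunits varied. CCT6A, outside the list, gave 0.35 and 0.18, CCT6B, also outside it, gave -0.52, and 2 of the TCP1 sets above gave 0.18 and 0.21. The arrays did not overlap on any of these, beside 17.2% of all tested probe sets above and 22.6% below, and none passed. CCT6A and CCT6B were named for their low p-values, a choice that favours sets without overlap. On the brighter set of CCT8, also outside the list, the groups overlapped (0.004 ± 0.10), as they did on the other TCP1 set (-0.01 ± 0.10). Of the 6, 1 CCT2 set had both MED1 arrays above, at 8167 and 8845 with MED1, against 7693 and 8035 with empty vector (0.11 ± 0.10). The small heat shock proteins, which hold unfolded protein without ATP, gave 0.03 ± 0.11 for HSPB1 (HSP27), 0.10 ± 0.16 for CRYAB and 0.23 ± 0.28 for HSPB8. HSPB1 read 4273 and 4643 with MED1, against 4029 and 4707 with empty vector, and all 3 genes overlapped between the groups.

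The other HSP40 genes spread on both sides of 0. DNAJA2 was above on both arrays (0.23 ± 0.11), and DNAJB2, an HSP40 protein best known from neurons, was below on both (-0.09 ± 0.13). DNAJB5 had the lowest value of all members, at -0.39 ± 0.24, with 82.8 and 56.1 with MED1, against 79.4 and 112.7 with empty vector, which overlapped. Over the 12 tested HSP40 probe sets the median was 0.01, with 6 positive and 6 negative.

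Of the 7 HSP90 cochaperone probe sets, 1, of CHORDC1, had both MED1 arrays above (14.3%). A further 2, of CDC37 and STIP1, had both below (28.6%). Over all tested probe sets these shares were 17.2% and 22.6%. CDC37, which delivers kinases to HSP90, read 989 and 997 with MED1, against 1079 and 1126 with empty vector, lower on both MED1 arrays (-0.15 ± 0.09, adjusted p = 0.652). STIP1 (HOP), which joins HSP70 to HSP90, gave 0.18 ± 0.14 and -0.04 ± 0.13. FKBP4 (FKBP52), an immunophilin of steroid receptor complexes, gave -0.14 ± 0.11 and 0.004 ± 0.12, and PTGES3 (p23) gave 0.07 ± 0.10. The family median was 0.004.

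Probe sets of 1 gene often disagreed in sign. Of 13 genes with more than 1 tested probe set, 5 had all values positive (DNAJA1, DNAJB1, HSP90AB1, HSPD1 and HSPH1) and 8 had both signs. The largest gap within a gene was 0.41, in HSPA4, and the smallest was 0.04, in DNAJA1. Direction was also counted by signal. Of the 11 tested chaperone sets with a mean signal under 300, 1 had both MED1 arrays above and 4 had both below, with a median of -0.09, beside 14.9% above, 23.5% below and a median of -0.04 for all tested probe sets of that signal. Of the 6 between 300 and 1000, 3 were above and 0 below, with a median of 0.08, beside 17.3% above, 24.8% below and a median of -0.01 for all in that range. Of the 24 between 1000 and 5000, 11 were above and 2 below, with a median of 0.10, beside 22.4% above and 21.8% below and a median of 0.002 for all in that range. Of the 13 above 5000, 4 were above and 0 below, beside 16.4% and 6.84% of all.

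Other chaperones and stress genes were described from lists chosen with earlier results of these data known. Of 65 tested probe sets of other cytosolic and mitochondrial chaperones, 0 passed. Both MED1 arrays were above in 16 (24.6%) and below in 11 (16.9%), beside 17.2% and 22.6% of all tested probe sets, and the median was -0.01. The lowest p belonged to CCT6B, a testis form of a CCT subunit, at -0.52 ± 0.13 (limma, adjusted p = 0.27). The widely expressed CCT6A gave 0.35 ± 0.10 and 0.18 ± 0.09. DNAJC11, of the mitochondrial membrane, gave 0.78 ± 0.22, with empty vector signals of 298 and 168, and DNAJC2, a ribosome-bound HSP40, gave 0.25 ± 0.10. Heat-inducible genes outside the chaperone list had 9 tested probe sets with a median of 0.02, and none passed (lowest adjusted p = 0.688, CACYBP; 0 at an unadjusted p under 0.05).

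Chaperones of the endoplasmic reticulum and the unfolded protein response had 37 tested probe sets, of which 0 passed. Both MED1 arrays were above in 14 (37.8%) and below in 3 (8.11%), beside 35.2% and 11.1% of the cytosolic and mitochondrial set, and the median was 0.10. HSPA5, the endoplasmic reticulum HSP70 (BiP), read 5319 and 5182 with MED1, against 4136 and 4157 with empty vector (0.34 ± 0.09, adjusted p = 0.277). HERPUD1, which acts in degradation from that compartment, gave -0.55 ± 0.09 (adjusted p = 0.0584). The ATF4 response, a stress program driven by a transcription factor that responds to amino acid shortage among other stresses, was lower. In all 16 of its tested probe sets each MED1 array read less than each empty vector array, beside 22.6% of all tested probe sets. Of the 16, 11 fell (limma, adjusted p under 0.05), beside 25 of all 13329, and the median was -0.98. This list too was chosen with earlier results of these data known, so its counts are a description.

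**Figure D5:**
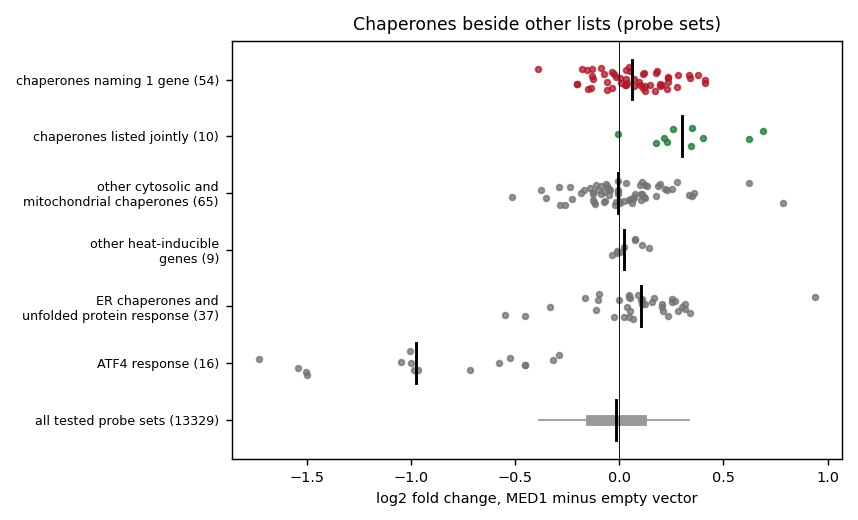
Log2 fold change of each tested probe set (MED1 minus empty vector) for the chaperones, the jointly listed chaperone sets and the other lists, with the number of probe sets in brackets; black bars are medians, and for all tested probe sets the thick and thin grey lines span the central 50% and 90%. The chaperone median is 0.06, the endoplasmic reticulum median 0.10 and the ATF4 median -0.98.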

How the data were processed

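Total RNA (200 ng per sample) from 2 MED1 and 2 empty vector samples was labelled with biotin and hybridised to 1 Affymetrix array each. The authors deposited linear signal intensities made with MAS5, as named without a version in the submitters' processing notes. Its settings are not stated there or in the labels. MAS5 scales each array, and the deposited intensities had a mean of 500.2 on every array after trimming 2% at each end. No detection calls were used, so low signals have no known background, and precision is limited by the number of arrays. Groups came from the sample titles.

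Control probe sets (62) were left out. Of the other 22215, the platform annotation named 1 gene for 19064, several for 1043 and none for 2108. Signals were taken as log2(value + 16), which understates changes of dim genes, filtered at the 40th percentile of the mean and fitted with limma 3.58.1 in R 4.3.3 (lmFit, eBayes with a variance trend, Benjamini-Hochberg over 13329 probe sets, two-sided). The fit has 2 residual and 7.3 prior degrees of freedom, so most of each error is borrowed from other probe sets. With 2 arrays against 2, an exact permutation test cannot reach 0.05. The code was tested on simulated data. The members and lists were chosen with earlier results of these data known. Values on every array are given for members with an unadjusted p under 0.05 and arrays that do not overlap and for members fixed by name; other probe sets were added where they show how a family varied. From other lists up to 4 genes of lowest p are named, and CCT8 was added beside the other CCT subunits. Figures were drawn with matplotlib 3.10.9. Alternatives covered the pseudocount, filter, scaling, variance model, replicate block, each array left out, averaged probe sets, looser call rules and, chosen after seeing the data, inclusion of jointly annotated probe sets.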

Additional observations from a re-analysis of the deposited data

How the results depend on the processing

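The count of chaperone probe sets passing stayed at 0 with pseudocounts of 1 and 64, at the 60th percentile, with centring, quantile normalization, robust eBayes, averaged probe sets and an adjusted p under 0.1, where 27 to 62 of all probe sets passed. It was also 0 without the filter and without the variance trend, but 0 and 5 of all probe sets passed there, so these say nothing of stability. It was 7 at an unadjusted p under 0.05, a looser rule, and 1 with the jointly annotated sets. It was 3 with the replicate number as a block (1 each of HSPH1, DNAJA1 and CHORDC1), in a fit that called 239 of 13329 probe sets and in which 2 HSPA8 sets and 1 DNAJB6 set listed with other genes passed too; same-numbered deviations correlated at 0.12 over 2 pairs, too few to treat the numbers as pairing. With 1 array left out it was 0 to 1, the 1 being CHORDC1 without MED1 replicate 2. The cause was not tested.

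The number of sets with both MED1 arrays above was 19 to 21 with the other scalings, pseudocounts and filters. Over all probe sets the share above was 15.7% to 20.5% in those fits. The number below was 4 to 7 there, beside 19.2% to 22.6% of all. With the jointly annotated sets 28 were above and 6 below, beside 17.2% and 22.6%. With probe sets averaged, 11 of 36 genes were above and 5 below, beside 17.4% and 22.9%. Leaving out 1 array makes separation easier by construction. The number above was then 22 to 33 (33 without MED1 replicate 1), beside 30.3% to 33.4% of all tested sets. The number below was 9 to 18 (18 without MED1 replicate 2, 15 without empty vector replicate 1), beside 35.9% to 41.7%. The median was 0.04 to 0.08 under the other settings, 0.11 (0.106) with the jointly annotated sets, and 0.0134 to 0.117 with 1 array left out, against a spread between replicates of 0.0415 (SD).

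The log2 fold change of the set listing HSPA1B and HSPA1A was 0.69 in each fit that lost its call with all arrays (no filter, no trend, probe sets averaged), and 0.563 to 0.819 with 1 array left out. For the MED1 set that passed it was 1.11 with no filter and no trend, 0.60 averaged with the other MED1 set (adjusted p = 0.0756), and 0.848 to 1.36 with 1 array left out. Of 28 chaperone probe sets followed through every setting, 19 kept their sign throughout. Averaging a gene's sets gave 0.12 for HSPA4, 0.0272 for HSPA9 and 0.0807 for HSP90AA1, each of which has 1 negative set. With 1 array left out, signs turned, with no call, for HSPA9 from -0.192 to 0.251, HSPB1 from -0.0794 to 0.144, HSPD1 from -0.0282 to 0.218, HSP90AA1 from -0.0443 to 0.123, another HSP90AA1 set from -0.0822 to 0.0355, HSP90AB1 from -0.0638 to 0.159, DNAJB1 from -0.0201 to 0.166 and the first TCP1 set from -0.0786 to 0.0646. Centring turned the same TCP1 set to 0.0151. The low number of arrays and the lack of detection calls limit what can be said of dim members such as HSPA6.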
